A study of Mus musculus with 9 samples.

Results

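The cytochrome P450 genes of the mouse were followed across 9 liver tumors. They were taken as all gene symbols made of Cyp, a family number, a subfamily letter and a gene number, which gave 94 of the 24421 symbols in each tumor's file. The pattern passes over 11 other symbols that begin with Cyp, among them the sterol demethylase gene Cyp51, the paralog pairs Cyp3a41a and Cyp3a41b and Cyp4a12a and Cyp4a12b, and pseudogenes. In 56 of the 94 genes 3 or more tumors reached a log2 value of 4, and these genes were tested, and the other 38 are accounted for below. The tumors were taken from livers of C57BL/6 mice aged 11 weeks, 3 from each group, and the groups are called LHP, S7HP and S7HP+Snail. Headings inside the files carry the word Luc for LHP, Smad7 for S7HP, and Smad7 with snail for S7HP+Snail. Smad7 is an inhibitor of TGF-β receptor signaling, and Snail is a repressor of epithelial genes. What else the group names stand for, how and in which cells the constructs were expressed, and whether the tumors came from separate mice is not given in the sources used here. The p-values therefore measure only the spread between these tumors.

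P450 enzymes hold a heme group and use oxygen, with electrons passed on by a reductase, to oxidize fat-soluble molecules. In the liver, families 1 to 3 act mainly on drugs, toxins and steroids, family 4 on fatty acids and eicosanoids, and families 7, 8, 27 and 39 on sterols on the way to bile acids. Family 26 breaks down retinoic acid. Most of these genes are switched on in mature hepatocytes by liver transcription factors and nuclear receptors.

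Each value comes from 3′ sequencing and is a read count, quantile-normalized, plus 1, on the log2 scale. The method yields about 1 read for each transcript, so levels of different genes can be compared without division by length. The quantile step gives all libraries nearly the same total, and the original depth of each library is unknown. Albumin (Alb), the main hepatocyte product, was present in 9 of 9 tumors at 12.98 to 17.32. The mouse Smad7 gene was at 9.49 to 10.50 in LHP, 6.28 to 6.81 in S7HP and 6.77 to 8.0 in S7HP+Snail, so it was lower in the tumors labelled for it. Snai1, the gene of Snail, was at 9.93 to 11.16 in LHP, 6.17 to 6.92 in S7HP and 7.31 to 8.53 in S7HP+Snail. Whether 3′ reads could see the introduced constructs is not stated, so these values do not test the labels.

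P450 transcripts were more abundant in the S7HP and S7HP+Snail tumors than in LHP. Summed over the 94 genes, LHP tumors 2, 3 and 6 held 5798, 8882 and 9558 normalized counts. S7HP tumors 9, 11 and 12 held 41660, 18840 and 15950, and S7HP+Snail tumors 13, 14 and 15 held 20640, 28540 and 11430. All 6 of these lay above the highest LHP tumor, with tumor 15 the nearest to it. As a share of all normalized counts this was 0.029% to 0.048% in LHP, 0.080% to 0.209% in S7HP and 0.057% to 0.143% in S7HP+Snail. Family 2, the largest, gave the largest share of the P450 counts in each of the 9 tumors, with 2922 to 5406 normalized counts in LHP, 7048 to 24010 in S7HP and 6187 to 15190 in S7HP+Snail. A two-sided exact permutation test of 3 tumors against 3 cannot reach 0.05, so the sums are given without a test.

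**Figure D1:**
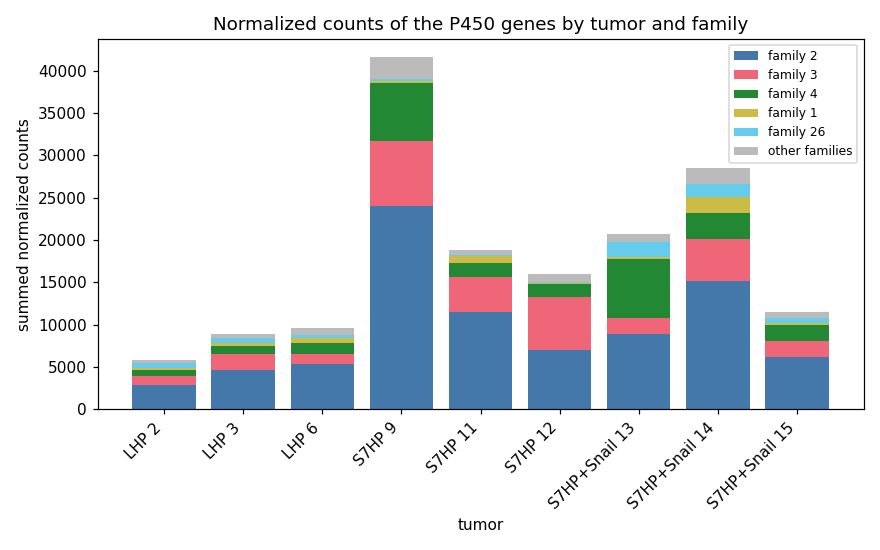
Summed normalized counts of the 94 P450 genes (vertical axis) in each of the 9 tumors (horizontal axis), with each bar split by P450 family. The LHP bars end between 5798 and 9558, below the 6 others, and S7HP tumor 9 has the tallest bar at 41660.

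The leading gene differed between tumors. In S7HP, Cyp3a13, a drug- and steroid-oxidizing enzyme of family 3, gave 34.2% of the P450 counts in tumor 12, 12.2% in tumor 11 and 12.6% in tumor 9, where Cyp2d26 came first at 13.5%. In S7HP+Snail, Cyp4f14, a hydroxylase of leukotrienes and fatty acids, gave 30.1% in tumor 13. Cyp3a11, the main drug-oxidizing P450 of mouse liver, led in tumors 14 and 15 at 11.2% and 9.4%. In LHP no gene passed 11.6% of the P450 counts, and the first places fell to the retinoic acid hydroxylase Cyp26b1 in tumor 2, Cyp3a11 in tumor 3 and Cyp2d10 in tumor 6.

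**Figure D2:**
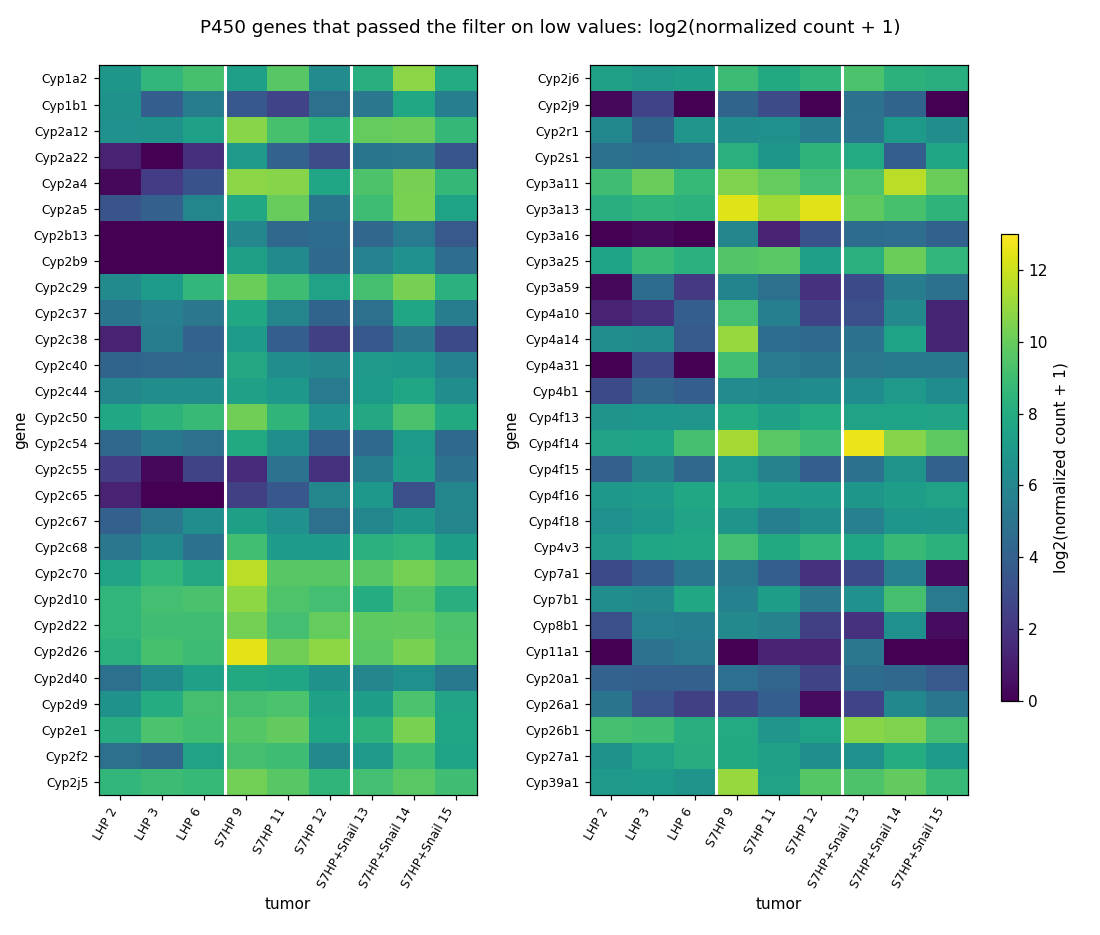
Log2(normalized count + 1) of the 56 tested P450 genes (rows) in the 9 tumors (columns), with white lines between the groups LHP, S7HP and S7HP+Snail. Cyp2b9 and Cyp2b13 are at 0 in the 3 LHP tumors, and S7HP tumor 9 and S7HP+Snail tumor 14 stand out as bright columns.

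The comparison of S7HP with LHP sets Smad7 tumors against Luc tumors. In S7HP, 15 of the 56 tested P450 genes rose and 0 fell (limma, Benjamini-Hochberg adjusted p under 0.05 over all 14215 genes tested). That is 26.8% of the P450 genes higher, where 9.47% of all genes tested were called higher, 9.54% lower and 19.0% in either direction. Among the risen genes, Cyp2a4, Cyp2a22, Cyp2b9, Cyp2b13 and Cyp4a31 were under 4 in every LHP tumor. They met the filter on low values only through the other groups, so they could hardly have been called lower. At an unadjusted p under 0.05 the counts were 23 higher and 1 lower. The median change of the P450 genes was 1.07, beside 0.02 over all genes tested, and 45 of 56 changes were positive. In 20 of the 56 genes every S7HP tumor lay above every LHP tumor, and in 1 gene, Cyp26b1, every S7HP tumor lay below, where 20.9% and 21.3% of all genes tested did so. By that looser measure, 35.7% of the P450 genes were separated upward. Of 8 hepatocyte markers, 4 rose and 0 fell. They were Alb, Apoa1, Serpina1a and Hnf4a, while Ttr, Tat, Pck1 and Ass1 did not pass, with differences of 0.86, 1.34, 0.83 and -0.16. The summed level of the 8, of which none was at 0 in any tumor and to which Alb and Serpina1a, the most abundant by group mean, contributed most, was 23570 to 39550 normalized counts in LHP, 92440 to 299000 in S7HP and 75980 to 183000 in S7HP+Snail. Of 10 stellate cell and fibroblast markers 6 fell and 0 rose, and Reln, at a difference of 1.99, did not pass. Their summed level was 52050 to 71830, 8543 to 12880 and 15440 to 26040 in the same order of groups. The part of these shifts in the P450 values was not tested, and in bulk tumors more hepatocyte-type cells and more RNA per cell cannot be told apart.

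**Figure D3:**
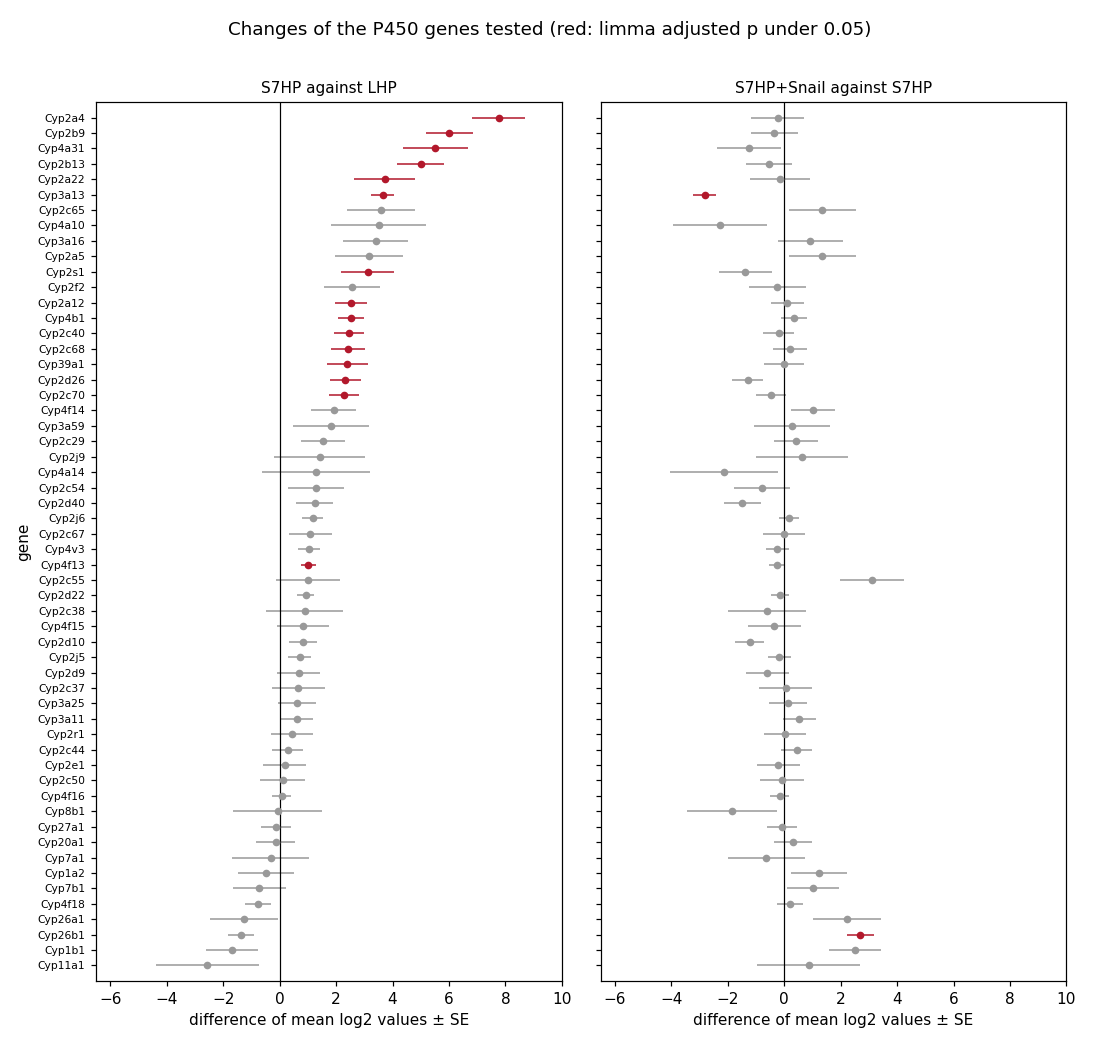
Difference of group means on the log2(normalized count + 1) scale with its SE (horizontal axis) for the 56 tested P450 genes (vertical axis), S7HP against LHP at left and S7HP+Snail against S7HP at right, each from 3 tumors a group. Red points passed the limma test: 15 at left, all above 0, and 2 at right, Cyp3a13 below 0 and Cyp26b1 above 0. For Cyp2b9 and Cyp2b13, at 0 in LHP, the plotted size depends on the added 1.

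Family 2 held 10 of the 15 genes that rose, from 29 tested genes of the 48 grouped as drug and xenobiotic enzymes of that family, and their median change was 1.42. Among the tested P450 genes, Cyp2a4 of chromosome 7 had the largest change. Cyp2a4 (chr7:26307169-26315088), a steroid hydroxylase, had log2 values of 0.29, 2.26 and 3.27 in LHP, 10.72, 10.66 and 7.71 in S7HP, and 9.38, 10.34 and 8.68 in S7HP+Snail. It was near the lowest measurable values in LHP and among the more abundant P450 transcripts in the other groups, with no overlap. The difference between S7HP and LHP was 7.76 ± 0.94 (SE, n = 3 tumors each; limma, Benjamini-Hochberg adjusted p = 0.00118), or 5.42 with 16 in place of 1 added before the log. Of the 50-base words in the last 300 bases of its transcript, 22.3% also stand in other genes, mainly Cyp2a5, the coumarin hydroxylase of the same chromosome, so reads may be split between them. Cyp2a5 was at 3.38, 3.98 and 5.94 in LHP and 7.78, 9.96 and 5.05 in S7HP, with overlap, and did not pass (adjusted p = 0.0928, limma).

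Cyp2b9 (chr7:26173411-26210661) and Cyp2b13 (chr7:26061497-26096197), steroid-oxidizing enzymes known as higher in female than male mouse liver, were listed at 0 in 3 of 3 LHP tumors. Cyp2b9 was at 7.39, 6.16 and 4.50 in S7HP and 5.74, 6.59 and 4.67 in S7HP+Snail. Cyp2b13 was at 6.03, 4.38 and 4.57 in S7HP and 4.28, 5.43 and 3.62 in S7HP+Snail. Both were thus present in 6 of 6 tumors of these groups and in 0 of 3 LHP tumors. Both passed the test against LHP (limma, Benjamini-Hochberg adjusted p = 0.00205 and 0.00423 in S7HP), and no fold is given against a group at 0. With LHP at 0, both met the filter on low values only through the other groups. Their measured spread also comes from those groups alone, so these p-values add little to the values. The third-lowest step above 0 lay between 1.22 and 2.64 in the 9 libraries, so a lower level could have been missed in LHP. Another 2b gene, Cyp2b10, the classic phenobarbital-inducible P450, was also at 0 in LHP and reached 4.51, 3.29 and 0.42 in S7HP, too low to be tested.

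Cyp2a12 (chr7:27029081-27037375), which hydroxylates bile acids in the mouse, was at 6.60, 6.63 and 7.43 in LHP and 10.67, 9.23 and 8.34 in S7HP, with no overlap. Its difference was 2.53 ± 0.58 (SE; limma, Benjamini-Hochberg adjusted p = 0.0163), and it missed the threshold without LHP tumor 2 or 3 (0.0558 and 0.0593). Cyp2a22, of the same subfamily, was at 1.22, 0 and 1.74 in LHP and 6.96, 4.08 and 3.10 in S7HP, a difference of 3.73 ± 1.07 (adjusted p = 0.0379, limma). That difference came to 1.46 with 16 in place of 1 added before the log, with an adjusted p of 0.115, and on leaving out LHP tumor 2, 3 or 6, or S7HP tumor 9 or 11, the adjusted p was 0.0710 to 0.139. Cyp2s1, a P450 of epithelia outside the liver that responds to dioxin, was at 4.85, 4.67 and 4.72 in LHP and 8.23, 6.89 and 8.47 in S7HP. The LHP tumors lay close together and well below, with a difference of 3.12 ± 0.95 (adjusted p = 0.0474, limma), which did not pass when any 1 of the 6 tumors was left out (0.0629 to 0.132). Altogether 6 of the 10 tested P450 genes of chromosome 7 rose, beside 3 of 12 on chromosome 19 and 2 of 8 on chromosome 4. On chromosome 17 it was 2 of 6, and on chromosomes 5 and 15 it was 1 of 5 each. Of all genes tested, 9.47% were called higher. Among the risen genes, Cyp2a4, Cyp2a22, Cyp2b9 and Cyp2b13 of chromosome 7 and Cyp4a31 of chromosome 4 met the filter only through the other groups. Cyp2a4 and Cyp2a5 of chromosome 7 may share reads, so these counts are not of fully separate genes.

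In the 2c and 2d clusters the rises were smaller and from a measurable LHP level. Cyp2c70 (chr19:40153353-40187333), which makes the muricholic acids of the mouse, was at 7.61, 8.60 and 7.84 in LHP, 11.63, 9.61 and 9.65 in S7HP, and 9.62, 10.29 and 9.56 in S7HP+Snail. Its difference of 2.28 ± 0.53 passed in S7HP (limma, Benjamini-Hochberg adjusted p = 0.0164), though not without LHP tumor 2 or 6 (0.0590 and 0.0602). Cyp2d26 (chr15:82790101-82794294), the member with the highest mean over the 9 tumors, was at 8.26, 9.24 and 8.93 in LHP and 12.45, 10.16 and 10.78 in S7HP. It rose by 2.33 ± 0.54 (adjusted p = 0.0173, limma), but missed the threshold without LHP tumor 2 or 6 (0.0622 and 0.0515). Cyp2c40 was at 4.21, 4.27 and 4.42 in LHP and 7.82, 6.43 and 6.02 in S7HP (change 2.46 ± 0.55, adjusted p = 0.0136, limma). Cyp2c68 was at 5.13, 6.24 and 4.84 in LHP and 9.07, 7.18 and 7.20 in S7HP (change 2.41 ± 0.60, adjusted p = 0.0224, limma), and missed the threshold without LHP tumor 2 or 6 or S7HP tumor 9 (0.0701, 0.0831 and 0.0662). Between 32.3% and 57.9% of the 3′ words of Cyp2c68 and Cyp2c40 stand in another P450 gene, so the 2 are uncertain as separate genes.

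The promoters of the P450 genes were searched for short motifs that were chosen with the results known. A link between these motifs and the level of any factor was not tested. The windows, 250 bases before to 50 after each RefSeq start site on GRCm38.p6, covered 73 of the 94 genes in 83 windows. The letters CAAAGTNCA of the HNF4 type, on either strand, stood in 16.9% of the P450 windows and in 1.41% of all 32851 windows. They stood in 14 P450 genes, among them 4 of the 13 risen genes with a window: Cyp2c40, Cyp2c68, Cyp2c70 and Cyp2d26. The rest of the 14 were not called in S7HP against LHP. They were Cyp26a1, Cyp2c37, Cyp2c50, Cyp2c65, Cyp2c67, Cyp3a11, Cyp3a16 and Cyp8b1, and the untested Cyp2c69 and Cyp3a44. Cyp2c genes arose by duplication, so their windows are not independent, and a match is not evidence of binding. The TATA letters TATAAA were in 38.6% of the P450 windows and 13.6% of all, and TTGCNNAA of the C/EBP type in 25.3% and 10.8%. In the sequences below, read 5′ to 3′ on the gene's minus strand from up to 250 bases before the start site and ending before the annotated gene, capitals mark the HNF4-type match. They show it in 2 genes of the 2c cluster and in 1 of the 2d cluster.
Cyp2c40 (chr19:39812815-39813064): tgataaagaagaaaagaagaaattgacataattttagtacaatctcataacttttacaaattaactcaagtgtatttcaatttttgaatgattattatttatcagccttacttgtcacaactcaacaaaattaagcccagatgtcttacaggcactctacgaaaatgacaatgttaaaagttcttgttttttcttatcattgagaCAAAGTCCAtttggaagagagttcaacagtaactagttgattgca
Cyp2c70 (chr19:40187334-40187536): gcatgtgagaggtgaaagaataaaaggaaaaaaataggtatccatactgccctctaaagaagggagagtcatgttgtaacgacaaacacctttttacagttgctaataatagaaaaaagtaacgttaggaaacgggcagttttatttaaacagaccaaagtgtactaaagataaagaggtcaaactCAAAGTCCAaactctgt
Cyp2d26 (chr15:82794295-82794495): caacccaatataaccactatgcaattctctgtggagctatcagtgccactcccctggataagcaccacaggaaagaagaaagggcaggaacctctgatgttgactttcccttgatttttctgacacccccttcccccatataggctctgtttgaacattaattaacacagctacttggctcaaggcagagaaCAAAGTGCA
The match began 45 bases before the start site in Cyp2c40, 64 in Cyp2c70 and 58 in Cyp2d26.

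The abundant family 2 genes not named so far did not pass. Cyp2e1 (chr7:140763739-140774987), which oxidizes ethanol and acetaminophen around the central vein, was at 8.09, 9.34 and 9.09 in LHP and 9.56, 9.86 and 7.65 in S7HP, with overlap (difference 0.18 ± 0.76 SE; limma, adjusted p = 0.891). Cyp2d22 was at 8.57, 9.02 and 9.00 against 10.27, 9.13 and 9.95, with no overlap, and its difference of 0.92 ± 0.31 missed the threshold (adjusted p = 0.0658, limma). Cyp2d10 differed by 0.82 ± 0.50 and the arachidonic acid epoxygenase Cyp2j5 by 0.71 ± 0.40, both with overlap (adjusted p = 0.279 and 0.235, limma).

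In family 3, 1 of 5 tested genes rose. Cyp3a13 (chr5:137892932-137921619) was at 8.13, 8.49 and 8.36 in LHP and 12.36, 11.17 and 12.42 in S7HP. The LHP tumors differed by less than 1 log2 unit, and every S7HP tumor was above them by more than 2. The difference was 3.66 ± 0.40 (SE, n = 3 tumors each), with the smallest adjusted p of the P450 genes (limma, Benjamini-Hochberg adjusted p = 0.000755). The main drug-oxidizing gene Cyp3a11 did not pass, at 9.01, 10.005 and 8.71 against 10.48, 9.94 and 9.11 (difference 0.60 ± 0.58, adjusted p = 0.505, limma). Cyp3a25 differed by 0.61 ± 0.68 (adjusted p = 0.566, limma).

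Family 4 gave 3 of 10 tested genes. Cyp4b1 (chr4:115624725-115647723), which oxidizes fatty acids and some toxins, was at 2.94, 4.27 and 3.87 in LHP and 6.25, 6.06 and 6.33 in S7HP, with no overlap. It rose by 2.52 ± 0.46 (limma, Benjamini-Hochberg adjusted p = 0.00691), or by 1.65 with 16 added before the log. Cyp4a31, of the fatty acid hydroxylases that PPARα controls, was at 0, 2.87 and 0 in LHP and 9.06, 5.31 and 5.05 in S7HP (difference 5.51 ± 1.15, adjusted p = 0.0107, limma; 2.66 with 16 added). It shares 22.3% of its 3′ words with other genes, mainly Cyp4a32. The related Cyp4a10 and Cyp4a14, named after their values were seen, were high in 1 S7HP tumor, number 9, at 9.14 and 10.99, and under 6 in tumors 11 and 12. Cyp4f13, outside the rule for named genes, rose by 1.02 ± 0.27 (adjusted p = 0.0269, limma), and missed the threshold when LHP tumor 2, 3 or 6, or S7HP tumor 9 or 12, was left out (0.0683 to 0.0908). Cyp4f14 was at 7.50, 7.55 and 9.17 against 11.25, 9.69 and 9.03, with overlap (difference 1.92 ± 0.79, adjusted p = 0.117, limma).

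**Figure D4:**
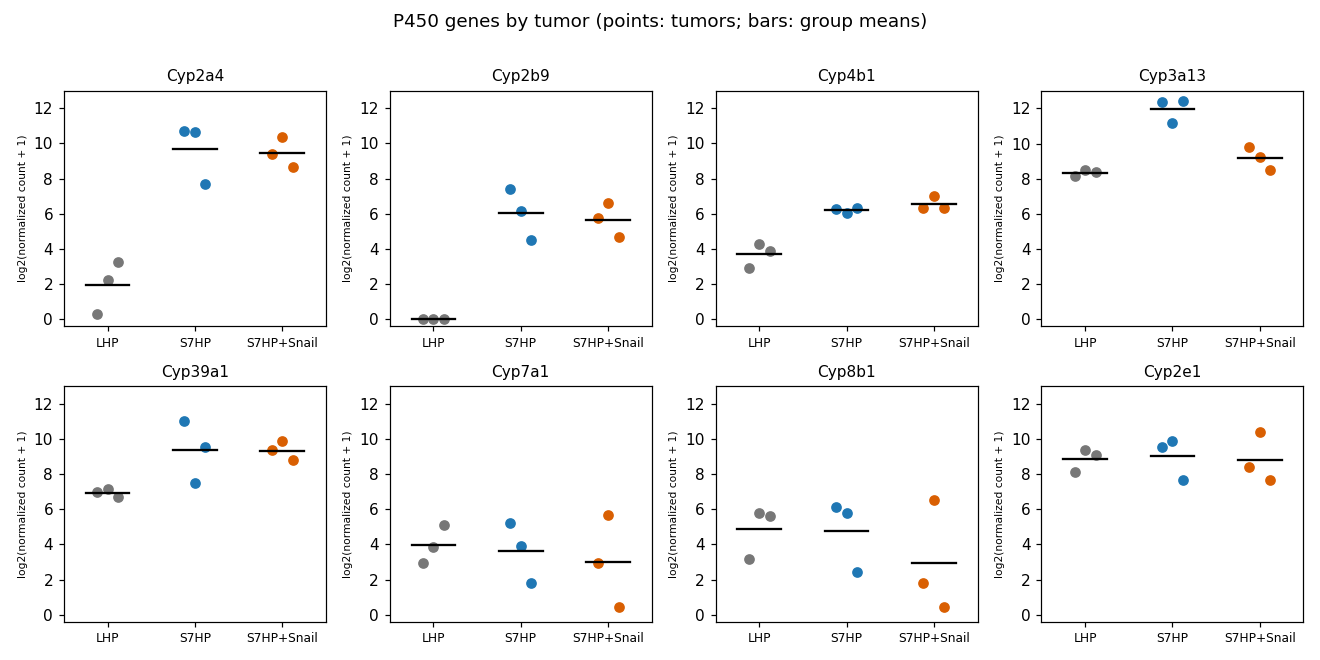
Log2(normalized count + 1) (vertical axes) of 8 P450 genes in the 3 tumors of each group (points; bars are group means). In the S7HP group Cyp2a4, Cyp2b9, Cyp4b1, Cyp3a13 and Cyp39a1 lie above the LHP tumors, while Cyp7a1, Cyp8b1 and Cyp2e1 overlap between all groups.

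Cyp2c70 and Cyp2a12, which act on bile acids and rose, were counted with family 2 above. Of 5 tested genes grouped as sterol and bile acid enzymes 1 rose, Cyp39a1 (chr17:43667425-43751431), an oxysterol hydroxylase. It was at 6.97, 7.15 and 6.71 in LHP, 10.99, 7.49 and 9.56 in S7HP, and 9.35, 9.86 and 8.77 in S7HP+Snail. The difference in S7HP was 2.40 ± 0.72 (limma, Benjamini-Hochberg adjusted p = 0.0440). It came to 1.58 without S7HP tumor 9 (0.111), and it also missed the threshold without LHP tumor 2, 3 or 6, S7HP tumor 12 or S7HP+Snail tumor 13 (0.0570 to 0.126). Cyp7a1, the rate-limiting enzyme of the classical route to bile acids, was low throughout, at 2.94, 3.86 and 5.09 in LHP, 5.21, 3.90 and 1.83 in S7HP, and 2.94, 5.68 and 0.42 in S7HP+Snail. Cyp8b1, needed for cholic acid, was at 3.19, 5.77 and 5.61, then 6.11, 5.79 and 2.44, then 1.83, 6.52 and 0.42. Both genes varied more within S7HP+Snail than the group means differed. The S7HP differences were -0.32 ± 1.36 for Cyp7a1 and -0.07 ± 1.59 for Cyp8b1 (adjusted p = 0.898 and 0.979, limma), so changes of several-fold in either direction lie within 2 SE. Cyp27a1, which starts the alternative route in mitochondria, and Cyp7b1, its oxysterol hydroxylase, differed by -0.13 ± 0.53 and -0.71 ± 0.93 (adjusted p = 0.894 and 0.626, limma). Of 13 bile acid enzymes outside the P450 family 2 rose, the steroid reductase Akr1d1 by 2.78 ± 0.81 and Acnat1 by 2.05 ± 0.45 (adjusted p = 0.0397 and 0.0130, limma).

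The remaining groups held no called gene in S7HP against LHP. Among the dioxin-inducible genes, the caffeine-oxidizing Cyp1a2 was at 6.86, 8.57 and 9.22 in LHP and 7.32, 9.62 and 6.28 in S7HP (difference -0.48 ± 0.99, adjusted p = 0.771, limma), and Cyp1a1 was at 0 in all 6 tumors. The liver vitamin D hydroxylase Cyp2r1 was at 6.07, 4.19 and 6.80 against 6.36, 6.54 and 5.52 (difference 0.45 ± 0.74, adjusted p = 0.707, limma), while the other vitamin D genes, Cyp24a1 and Cyp27b1, stayed under 3 in all 9 tumors. Of the steroid hormone genes only Cyp11a1, the cholesterol side-chain enzyme, was tested. It was present in LHP tumors 3 and 6 at 4.97 and 5.29 and in S7HP+Snail tumor 13 at 5.18, and under 2 elsewhere.

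The comparison of S7HP+Snail with S7HP sets tumors with Snail added against those with Smad7 alone. In S7HP+Snail against S7HP, 2 of 56 genes passed, Cyp26b1 higher and Cyp3a13 lower (limma, adjusted p under 0.05), where 1.01% of all genes tested were called higher, 1.29% lower and 2.3% in either direction. The share of P450 genes called, 3.57%, was close to that background. At an unadjusted p under 0.05, 3 were higher and 4 lower. The groups did not overlap in 2 genes upward, Cyp26b1 and Cyp1b1, and 2 downward, Cyp3a13 and Cyp2d40, where 9.53% and 11.0% of all genes tested did so. The median change was -0.08, beside -0.02 over all genes tested.

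Cyp3a13 fell from 12.36, 11.17 and 12.42 in S7HP to 9.78, 9.21 and 8.48 in S7HP+Snail, a change of -2.82 ± 0.40 (SE, n = 3 tumors each; limma, Benjamini-Hochberg adjusted p = 0.00946). Every S7HP+Snail tumor lay below every S7HP tumor, 2 of the 3 lay above the LHP tumors, and tumor 15 lay within the LHP range of 8.13 to 8.49. No other tested family 3 gene was called in this comparison, and their median change with Cyp3a13 included was 0.29. The promoter of Cyp3a13 is shown because Snail binds E-boxes of the letters CAGGTG. One such match, on the other strand and marked by capitals, began 246 bases before the start site, at the far edge of the window. The sequence below is from the minus strand, 5′ to 3′.
Cyp3a13 (chr5:137921620-137921869): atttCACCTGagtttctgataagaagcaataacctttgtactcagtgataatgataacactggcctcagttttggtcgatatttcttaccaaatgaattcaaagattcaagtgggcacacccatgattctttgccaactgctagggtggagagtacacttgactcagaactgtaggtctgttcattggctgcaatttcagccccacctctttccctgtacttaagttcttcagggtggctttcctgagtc
The same letters stood in 20.2% of all windows and in 21.7% of the P450 windows. Of the 15 genes with a window that were called in any comparison, 2 held them, Cyp3a13 and Cyp2s1, and Cyp26b1 did not. Cyp2s1, with its match 38 bases into the transcript, was at 7.97, 3.86 and 7.64 in S7HP+Snail, so it was low in 1 of 3 tumors. Its change against S7HP did not pass (-1.37 ± 0.95, adjusted p = 0.492, limma).

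Of the 3 retinoic acid hydroxylases, Cyp26b1 and Cyp26a1 had their lowest mean in S7HP and their highest in S7HP+Snail, though Cyp26a1 passed in no comparison, and Cyp26c1, at 1.0 or less in 9 of 9 tumors, was too low to be tested. Cyp26b1 (chr6:84571414-84593908), which clears retinoic acid, was at 9.14, 9.03 and 8.19 in LHP, 7.95, 6.79 and 7.52 in S7HP, and 10.70, 10.51 and 9.15 in S7HP+Snail. It rose by 2.70 ± 0.47 with Snail (limma, Benjamini-Hochberg adjusted p = 0.0219), but missed the threshold without S7HP tumor 11 or 12 (0.0920 and 0.0748) and in a fit of these 6 tumors alone (0.0628). Against LHP, S7HP differed by -1.37 ± 0.47 and S7HP+Snail by 1.33 ± 0.47, neither of which passed (adjusted p = 0.0675 and 0.115, limma). Cyp26a1, low in all groups, was at 5.02, 3.44 and 2.44 in LHP, 2.81, 3.90 and 0.42 in S7HP, and 2.64, 6.09 and 5.09 in S7HP+Snail, and its changes did not pass (2.23 ± 1.20 with Snail, adjusted p = 0.372, limma). Of 15 retinoid handling genes 1 rose and 3 fell in S7HP against LHP. The carrier Rbp4 rose by 2.90 ± 0.36, and Crabp1 and Crabp2, which bind retinoic acid in the cell, fell by 6.93 ± 2.00 and 6.24 ± 1.19 (adjusted p = 0.00115, 0.0390 and 0.00800, limma). Stra6, the receptor that takes up retinol, was at 7.74, 7.75 and 6.84 in LHP, listed at 0 in 3 of 3 S7HP tumors, and at 4.49, 9.66 and 6.57 in S7HP+Snail. It was called lower in S7HP and higher with Snail (adjusted p = 0.00247 and 0.0143, limma), and was the only one of the 15 called in the latter comparison. In S7HP+Snail against LHP, Rbp4 rose by 2.05, and Crabp1 and Crabp2 fell by 8.62 and 5.90 (adjusted p = 0.0116, 0.0343 and 0.0217, limma).

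**Figure D5:**
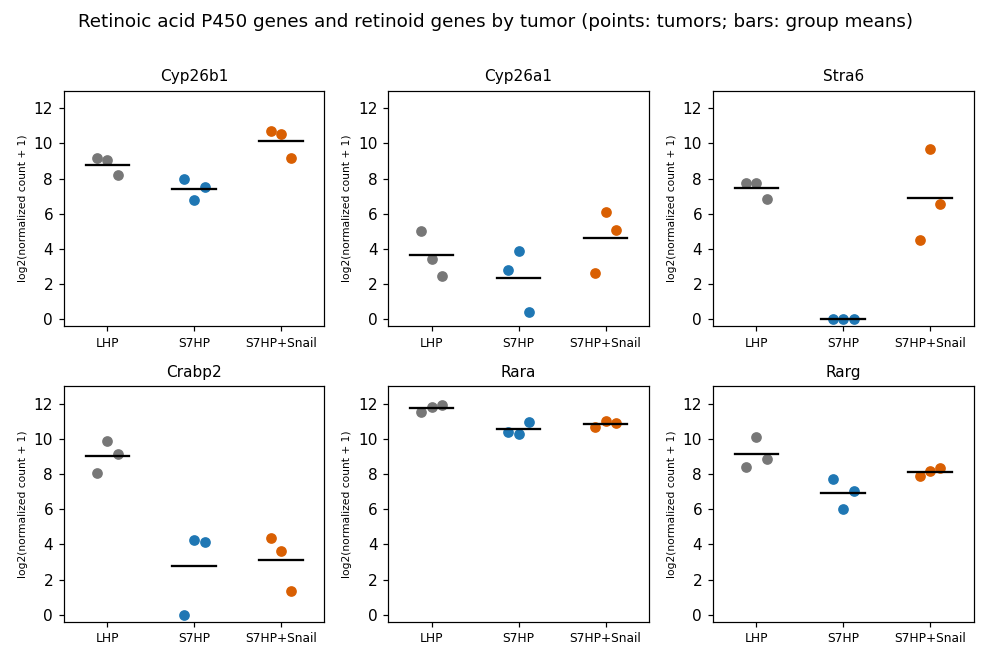
Log2(normalized count + 1) (vertical axes) of the P450 genes Cyp26b1 and Cyp26a1 and of 4 retinoid genes in the 3 tumors of each group (points; bars are group means). Cyp26b1 is lowest in S7HP (6.79 to 7.95) and highest in S7HP+Snail (9.15 to 10.70), and Stra6 is at 0 in the 3 S7HP tumors.

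S7HP+Snail was also compared with LHP, a comparison that shares the LHP tumors with that of S7HP. Here 8 of 56 P450 genes rose and 0 fell (limma, adjusted p under 0.05), which is 14.3%, where 3.35% of all genes tested were called higher, 3.87% lower and 7.22% in either direction. At an unadjusted p under 0.05 the counts were 22 higher and 0 lower. The groups did not overlap in 22 genes upward and 0 downward, where 14.7% and 15.8% of all genes tested did so, and the median change was 0.90. The genes that rose were Cyp2a4 by 7.53 ± 0.94, Cyp2a12 by 2.65 ± 0.58, Cyp2c40 by 2.26 ± 0.55, Cyp2c68 by 2.61 ± 0.60, Cyp2c65 by 4.95 ± 1.20 and Cyp4b1 by 2.86 ± 0.46, with Cyp2b9 and Cyp2b13 from 0 in LHP. Their adjusted p ran from 0.00332 for Cyp2a4 to 0.0385 for Cyp2c65 (limma). Cyp2a4, Cyp2b9, Cyp2b13 and Cyp2c65 were under 4 in every LHP tumor and met the filter on low values only through the Smad7 groups. Cyp2c65, of the 2c cluster, was at 1.22, 0 and 0 in LHP, 2.47, 3.53 and 5.99 in S7HP, and 6.91, 3.19 and 5.96 in S7HP+Snail, so it spread widely within both Smad7 groups.

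Several of these calls ended when 1 tumor was left out, while the changes stayed close to those with all tumors. Where the call of Cyp2a12 ended in this way its change was 2.40 to 2.92, beside 2.65, and that of Cyp2b13 stayed at 4.44. Leaving out LHP tumor 2, 3 or 6 took the count of 8 to 4, 3 and 3, leaving out S7HP+Snail tumor 13 took it to 4, and leaving out S7HP tumor 9, which enters through the shared spread, took it to 13. The calls of Cyp2a12, Cyp2c68 and Cyp2c40 each ended without any 1 of LHP tumors 2, 3 and 6 and S7HP+Snail tumors 13 and 14 (adjusted p 0.0560 to 0.102, 0.0542 to 0.116 and 0.0814 to 0.113, limma), and that of Cyp2c40 also without S7HP tumor 11 (0.0558). The call of Cyp2c65 ended without LHP tumor 2, 3 or 6 or S7HP tumor 11 (0.0581 to 0.118), and with 16 added before the log its change was 1.94 (0.102). Cyp2b13 missed the threshold without LHP tumor 3 or 6 (0.0521 and 0.0526). With 16 added, Cyp2b13, Cyp2b9 and Cyp2c40 missed it too, with changes of 1.25, 2.08 and 1.67 (adjusted p = 0.0894, 0.0522 and 0.0550, limma). In S7HP against LHP the count of 15 was 7 without LHP tumor 2, 10 without LHP tumor 3, 9 without LHP tumor 6 and 10 without S7HP tumor 9. Cyp2a4, Cyp2b9, Cyp2b13, Cyp3a13 and Cyp4b1 passed in S7HP against LHP under each of the alternatives in which they were tested.

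Within each group the P450 genes spread widely, and a few tumors were high or low for most of them. The median within-group SD of the 56 genes was 1.14 log2 units, beside 0.46 over all genes tested. S7HP tumor 9 was the highest of its group for 41 of the 56 genes (73.2%, beside 32.1% of all genes tested), and tumor 12 the lowest for 37 (66.1% beside 29.9%). S7HP+Snail tumor 14 was the highest for 43 genes (76.8% beside 33.5%), and tumor 15 the lowest for 34 (60.7% beside 33.1%). LHP tumor 2 was the lowest for 35 (62.5% beside 34.1%). Summed hepatocyte markers peaked in S7HP tumor 9 at 299000 normalized counts and in S7HP+Snail tumor 14 at 183000. They were lowest of their groups in LHP tumor 2 at 23570 and S7HP+Snail tumor 15 at 75980. In S7HP, however, tumor 12 at 92680 was not the lowest, with tumor 11 at 92440. Markers of pericentral hepatocytes, the cells around the central vein where many P450 genes are most active, summed to 27950 in S7HP+Snail tumor 14 and to 3507 to 9656 in the 8 others. The pericentral glutamine synthetase Glul, named after its value was seen, was at 13.64 in tumor 14 and 9.51 to 11.39 elsewhere. Cyp1a2 was at 10.74 and Cyp2e1 at 10.39 in tumor 14, the highest values of both genes in the 9 tumors.

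Of 22 tested nuclear receptors and liver factors that control P450 genes, 9 rose and 3 fell in S7HP against LHP. Hnf4a, the receptor that maintains hepatocyte identity, was at 6.73, 7.47 and 6.34 in LHP, 10.19, 9.91 and 9.61 in S7HP, and 9.17, 8.47 and 8.45 in S7HP+Snail, with no overlap between any of the groups. It rose by 3.05 ± 0.34 (limma, Benjamini-Hochberg adjusted p = 0.000809), and Foxa3 and Foxa2, which act with it, rose by 2.22 ± 0.28 and 3.25 ± 0.48 (adjusted p = 0.00134 and 0.00280, limma). The drug-sensing receptors differed: Nr1i2 (PXR) rose by 2.47 ± 0.53 (adjusted p = 0.0120), while Nr1i3 (CAR) was at 1.06 ± 0.63 and did not pass (0.266, limma; both named after their values were seen). The genes that fell were Rara and Rarg, receptors for retinoic acid, and Vdr, the receptor for vitamin D, with differences of -1.20 ± 0.24, -2.19 ± 0.51 and -2.88 ± 0.59 (adjusted p = 0.00931, 0.0167 and 0.0102, limma). With Snail added, Foxa3 alone was called, lower by 1.38 ± 0.28 (adjusted p = 0.0404, limma). In S7HP+Snail against LHP, Nr1h4 (FXR, the bile acid receptor), Hnf4a and Foxa2 rose by 1.81, 1.85 and 2.60 and Vdr fell by 2.62 (adjusted p = 0.0152, 0.0155, 0.0158 and 0.0308, limma).

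Of 15 electron donor and heme synthesis genes 1 rose in S7HP, the mitochondrial ferredoxin Fdx1, by 1.39 ± 0.29 (limma, Benjamini-Hochberg adjusted p = 0.0106), and 0 fell. None of the 15 passed in the comparisons with Snail, with medians of -0.37 against S7HP and 0.24 against LHP. Por, the reductase that feeds microsomal P450 enzymes, was at 10.90, 11.13 and 10.42 in LHP and 10.19, 9.89 and 10.17 in S7HP, lower in 3 of 3 tumors without passing (-0.74 ± 0.35, adjusted p = 0.171, limma). Alas1, the first step of heme synthesis, overlapped between these groups (-0.17 ± 0.31, adjusted p = 0.745, limma). Por and Alas1 were named after their values were seen.

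The cell type markers gave these counts for S7HP against LHP. Of 8 hepatocyte genes 4 rose (Hnf4a, Alb, Serpina1a and Apoa1), of 8 periportal genes 4 rose (Hal, Gls2, Cdh1 and Hsd17b13), and of 7 tested pericentral genes 0 passed. Of 8 cholangiocyte genes Tspan8 and Prom1 rose and Sox9 fell, of 10 stellate and fibroblast genes 6 fell, led by Col1a1, Col1a2, Acta2 and Pdgfrb, and of 8 endothelial and 8 macrophage genes 1 each fell, Plvap and Marco. With Snail against S7HP the endothelial gene Plvap rose, and 0 genes of the other cell type lists passed. In S7HP+Snail against LHP, Hnf4a, Alb, Tspan8 and Prom1 rose, 4 stellate and fibroblast genes fell (Col1a1, Col1a2, Pdgfrb and Acta2), and 0 of the periportal, pericentral, endothelial and macrophage genes passed.

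The 38 genes not tested were low. Among them 9 were at 0 in all 9 tumors, 21 peaked above 0 and under 4, and 8 reached 4 in fewer than 3 tumors. Those 8 included Cyp17a1, a steroid hormone enzyme, at 7.86 in S7HP tumor 9 and 0 to 4.51 elsewhere, and Cyp2d34, at 5.61 in S7HP+Snail tumor 13 and at most 1.58 elsewhere. Just inside the filter lay Cyp2j9 and Cyp20a1, with third-highest values of 4.20 and 4.39, and just outside lay Cyp2c69, Cyp17a1 and Cyp2d13 at 3.78, 3.69 and 3.61.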

How the data were processed

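RNA of 9 mouse liver tumors was taken with Trizol and 500 ng of total RNA went into QuantSeq 3′ libraries, per the labels' protocols. Bowtie2, edgeR and the build mm10 stand in the submitters' processing notes without versions or roles, while the sources used here name no counter or annotation. The deposited files hold log2 values, per the values themselves log2 of a quantile-normalized count plus 1, for 24421 symbols per tumor. The original depths are not preserved, so precision rests on the 3 tumors a group.

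The fit in limma 3.58.1 under R 4.3.3 (lmFit, then eBayes with trend and robust) took all 9 libraries and the 14215 genes that reached a log2 value of 4 in 3 libraries or more, leaving 6 residual degrees of freedom. Tests were two-sided. The call threshold was 0.05 on the Benjamini-Hochberg adjusted p over all 14215 genes. Group differences are of mean log2 values and understate changes of low genes. The procedure was tested on simulated data. There were 15 alternatives of filter, added count, scaling, variance model and libraries.

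The members, lists, motifs and tests were chosen with earlier results of these data known. Named are the called members (the 12 largest changes per direction where there were more), the 12 members with the highest mean, the tested sterol, vitamin D and retinoic acid members, and up to 4 called genes per list and comparison. Some genes that this rule names are counted in their lists but not reported here by name. The lists are electron donors and heme synthesis, nuclear receptors and liver factors, other bile acid enzymes, retinoid handling, and markers of hepatocytes (general, pericentral, periportal), cholangiocytes, stellate cells and fibroblasts, endothelium and macrophages. Gene coordinates and the 3′ sequences compared between genes are from GENCODE release 21 on GRCm38 (92 of 94 members matched). Promoter windows are from RefSeq on GRCm38.p6, and reads from near-identical paralogs may be shared. Python 3.11.15 and matplotlib 3.10.9 made the figures.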

Additional observations from a re-analysis of the deposited data

How the results depend on the processing

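In S7HP against LHP, the count of 15 called P450 genes was 6 with no filter on low values (94 genes tested) and ran from 7 to 17 when each tumor was left out in turn. Those 6 were 6.38% of the P450 genes, all higher, where 3.07% of all genes were called higher and 6.09% in either direction. In S7HP+Snail against S7HP the count of 2 was 0 with no filter, where 2 genes were higher and 1 lower at an unadjusted p under 0.05. It was 1 in a fit of the 6 compared libraries, Cyp3a13, and ran from 1 to 2 with tumors left out, at 1 without S7HP tumor 11 or 12. Of all genes tested 0.283% were called in either direction with no filter and 0.844% in that fit. Without S7HP tumor 11 or 12 it was 0.441% and 0.591%. In S7HP+Snail against LHP the count of 8 was 4 with no filter, 4 with 16 added before the log, and 3 to 13 with tumors left out. The counts stayed within 1.5 times under a filter at 6, median centring, which moved no library's median by over 0.006, and a constant prior variance. A call of a lower P450 gene in S7HP against LHP appeared in the fit of 6 libraries and without S7HP+Snail tumor 15. No called gene changed sign. Without a filter the adjustment runs over 24421 genes and the variance trend is fitted to all of them, and the cause of the other moves was not tested. Single-gene changes were followed for the genes of the naming rule and some picked by hand, not for all tested P450 genes. Of these changes under the alternatives, 79 lost the threshold and 33 gained it. Another 6, called in neither fit, moved by at least the spread within groups. The other 1613 kept their side of the threshold, and those that stayed called were counted there whatever their size. With 16 added, in S7HP against LHP, Cyp4a31 stayed called while its change went from 5.51 to 2.66, as did Cyp4b1 from 2.52 to 1.65. No paired analysis was possible because the groups share no replicate numbers. The third-lowest step above 0, at 1.22 to 2.64, limits what can be said of genes at 0 in LHP.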

Other observations

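Several of the P450 genes that were high in the Smad7 groups are known to be higher in female than in male mouse liver. A list of such genes was written after their values were seen, so no test is given. Of its 10 genes 8 are members, and 5 of these were tested. Cyp2a4, Cyp2b9, Cyp2b13 and Cyp2c40 were called higher in S7HP against LHP and in S7HP+Snail against LHP, where 9.47% and 3.35% of all genes tested were called higher. Because the genes were picked with their values known, these shares are no measure for the list. Cyp2a4, Cyp2b9 and Cyp2b13 also met the filter on low values only through the Smad7 groups. In S7HP+Snail against LHP, Cyp2b9, Cyp2b13 and Cyp2c40 missed the threshold with 16 added before the log (limma, Benjamini-Hochberg adjusted p = 0.0522, 0.0894 and 0.0550). The fifth, Cyp3a16, was at 0, 0.29 and 0 in LHP, 5.93, 1.29 and 3.27 in S7HP, and 4.60, 4.63 and 4.02 in S7HP+Snail, and passed in neither comparison (adjusted p = 0.0656 and 0.0520, limma). Cyp2b10, Cyp2c69 and Cyp3a44 were too low to be tested. Cyp3a44 was at 0 in 3 of 3 LHP tumors and at 6.61, 1.29 and 0.42 in S7HP, where 1.29 and 0.42 are the lowest values above 0 in their libraries. Of the genes known as higher in males, Cyp2d9 was at 6.67, 8.03 and 9.19 in LHP and 9.19, 9.30 and 7.45 in S7HP, and Cyp7b1 at 6.39, 6.11 and 7.76 and at 5.73, 7.25 and 5.14, with overlap in both. Cyp4a12a and Cyp4a12b, which the name pattern leaves out, had means of 3.93 and 2.70 in LHP, 6.30 and 4.85 in S7HP, and 7.32 and 4.62 in S7HP+Snail, also with overlap, and were called in no comparison. Transcripts of the Y chromosome were present in 9 of 9 tumors, with Ddx3y at 9.49 to 10.71. Uty rose by 1.12 ± 0.29 in S7HP+Snail against LHP (adjusted p = 0.0450, limma), while Ddx3y, Kdm5d and Eif2s3y were called in no comparison. Xist was at 2.35, 1.22 and 0 in LHP, 1.58, 0 and 4.64 in S7HP, and 4.81, 3.37 and 4.11 in S7HP+Snail, with no overlap between the last and LHP, and was called in no comparison. The growth hormone receptor gene Ghr, whose ligand sets the sex pattern of these P450 genes in normal liver, was at 12.86, 12.85 and 13.82 in LHP, 10.59, 10.22 and 10.61 in S7HP, and 10.28, 11.69 and 11.44 in S7HP+Snail. It fell by 2.70 ± 0.39 in S7HP against LHP and by 2.04 ± 0.39 in S7HP+Snail against LHP (limma, Benjamini-Hochberg adjusted p = 0.00247 and 0.0172). Ghr, Xist and the Y chromosome genes were named after their values were seen. A link between Ghr and the P450 values was not tested.

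Cyp3a41a and Cyp3a41b, the other 2 genes of the list known as higher in females, stand outside the name pattern. Cyp3a41a was at 0.29, 2.64 and 0.29 in LHP, 8.70, 3.74 and 5.59 in S7HP, and 6.36, 2.26 and 3.91 in S7HP+Snail. It rose in S7HP against LHP (limma, Benjamini-Hochberg adjusted p = 0.0379), but it is nearly identical to Cyp3a41b, which did not pass (adjusted p = 0.166), so reads may be split between them. Both overlapped LHP in S7HP+Snail. Cyp51, also outside the pattern and of cholesterol synthesis, was at 10.58 to 11.58 in the 9 tumors and was called in no comparison.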
